A study of Mus musculus with 6 samples.

Results

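The isocitrate dehydrogenase genes of the mouse were examined for chromatin accessibility in skeletal muscle nuclei with and without an shRNA against Yap. The 5 genes are Idh1, Idh2, Idh3a, Idh3b and Idh3g, and all 5 had a row among the 49366 promoter windows of the series. A fixed interval of chromosome 7 around Idh2 held 8 of the 36097 peaks of the series, from chr7:80074370-80075779 to chr7:80134237-80135457 (GRCm38), and these were examined with the genes. Genes were chosen by symbol and peaks by position. The study singled out Idh2 on these same libraries, so the values of Idh2 and its locus, including the p-values from the fit over all rows, are given as a description and not as independent evidence of a difference.

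Isocitrate dehydrogenases convert isocitrate to 2-oxoglutarate. Idh3 is the NAD-dependent enzyme of the mitochondrial TCA cycle, built from a catalytic alpha subunit (Idh3a) with beta and gamma subunits (Idh3b and Idh3g). Idh2 in mitochondria and Idh1 in the cytosol and peroxisomes use NADP instead and yield NADPH, and skeletal and heart muscle are known for a high Idh2 content. Yap, the coactivator at the end of the Hippo pathway, reaches DNA through TEAD factors, whose core binding sequence is ACATTCC.

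Accessibility was measured by ATAC-seq, which cuts open chromatin with a transposase, on nuclei sorted for Pcm1, a protein around the nuclei of muscle fibres. C57BL/6J males aged 8 weeks received AAV6:Yap-shRNA in the gastrocnemius and tibialis anterior muscles of a limb and the control AAV6:LacZ-shRNA in the contralateral muscles, and nuclei were taken after 28 days. Each group had 3 replicates, each a pool of 4 gastrocnemius and 4 tibialis anterior muscles, and all animals carried a viral vector. The labels do not say which animals a replicate came from, so p-values measure the spread between these pools.

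Counts in peaks totalled 2588520 to 6871176 per LacZ-shRNA library and 5884288 to 6701781 per Yap-shRNA library, and the lowest total was that of LacZ-shRNA replicate 2. The 12 muscle fibre markers had a median level at percentile 97.8 of all windows per kb. The fibroblast, endothelial, leukocyte and satellite cell markers had median percentiles of 35.0, 59.6, 65.7 and 81.5, and no marker with a window was at 0 or called. Summed fibroblast marker levels were 206 to 240 CPM in the LacZ-shRNA samples and 230 to 290 CPM in the Yap-shRNA samples. In the same order, leukocyte sums were 149 to 178 and 171 to 186 CPM. Endothelial sums were 120 to 130 and 116 to 124 CPM, and satellite cell sums 70.7 to 87.2 and 77.1 to 92.0 CPM. Muscle fibre sums were 1674 to 2373 and 1816 to 2107 CPM. The part of these sums in the results was not tested. In pooled nuclei, fewer nuclei of a kind and less accessibility per nucleus cannot be told apart. At the targeted gene, Yap1, the window had an edgeR log2 fold change of 0.039 (SE 0.18, adjusted p 0.990). This window overlaps that of another gene, so its counts may be incomplete, and it stood at percentile 10.7 of all windows per kb in LacZ-shRNA. An shRNA acts on RNA rather than on the promoter.

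The sequence of the Idh2 locus with the largest log2 fold change in size among its 8 peaks is shown first. It is the central part of an intergenic peak, chr7:80121026-80121603, whose near edge lies 5634 bp upstream of the Idh2 5′ end and which is called the upstream peak here. Capitals mark the TEAD match ACATTCC, which lies on the plus strand 10 bp from the peak centre. The other TEAD matches of the locus are shown with their flanks, for the Idh2 promoter peak and for the peak farthest upstream, to allow the neighbouring bases to be compared. All are GRCm38 plus strand, whereas Idh2 is read from the minus strand.
Upstream peak, chr7:80121154-80121453: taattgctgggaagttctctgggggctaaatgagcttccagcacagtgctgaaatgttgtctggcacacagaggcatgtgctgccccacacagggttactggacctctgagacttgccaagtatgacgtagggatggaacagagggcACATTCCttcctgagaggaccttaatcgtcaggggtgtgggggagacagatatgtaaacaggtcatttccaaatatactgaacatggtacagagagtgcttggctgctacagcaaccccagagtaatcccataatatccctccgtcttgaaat
Idh2 promoter peak, chr7:80114588-80114648: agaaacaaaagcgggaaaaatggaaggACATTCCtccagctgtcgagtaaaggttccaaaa
Farthest upstream peak, chr7:80135255-80135315: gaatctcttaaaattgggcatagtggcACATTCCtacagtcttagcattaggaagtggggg

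An exact TEAD match on either strand was found in 8.96% of 35982 peaks, and in 5.60%, 15.4% and 9.17% of peaks within 10% of the widths of these 3. The upstream peak also held the AP-1 sequence TGAGTCA at 80121097 to 80121103 and the nuclear receptor sequence AGGTCA at 80121360 to 80121365. Its GC content was 49.0%, against a median of 53.4% over all peaks. Such matches describe the letters in the window and are not evidence of binding.

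The upstream peak was the one in the locus whose groups did not overlap. It held 17.0, 17.8 and 17.8 CPM in LacZ-shRNA replicates 1, 2 and 3 and 14.8, 9.59 and 10.4 CPM in Yap-shRNA replicates 1, 2 and 3. The 3 LacZ-shRNA samples were close together, and Yap-shRNA replicate 1 stood nearer to them than to the other Yap-shRNA samples. The counts behind these levels were 42 to 121 per library. The mean was 17.5 ± 0.49 CPM in LacZ-shRNA and 11.6 ± 2.81 CPM in Yap-shRNA (SD, n = 3 each), and the log2 fold change was -0.59 (SE 0.19, 95% interval -0.98 to -0.21). The peak was not called among 36097 peaks (edgeR adjusted p 0.198, range over the alternatives 0.0902 to 0.818). Of all peaks 2.73% had a log2 fold change as low, and of the 3224 peaks with a TEAD match 1.61% did. Both shares are for single peaks, whereas the upstream peak had the lowest value of 8. They were not matched for width or count, so they do not measure how rare such a peak is.

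Among the 8 peaks of the locus, edgeR called 0, where 0.618% of all peaks were called. The likelihood-ratio test and DESeq2 also called 0, and the upstream peak alone had an unadjusted p under 0.05, where 8.9% of all peaks did and 5.31% with lower values in Yap-shRNA. It was also the 1 of 8 whose groups did not overlap, where 13.3% of all peaks did not, 6.76% with lower values in Yap-shRNA. The log2 fold changes ran from -0.59 to 0.23 with 6 of 8 below 0, as were 50.5% of all peaks, and the median was -0.059 against -0.0026 over all peaks. Scaling by library size alone raised the median of all peaks to 0.14, and 2 of 8 were then below 0, as were 28.4% of all peaks. Over left-out replicates 5 to 7 of 8 were below 0.

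The Idh2 promoter peak, chr7:80113826-80115807, spans the 5′ end and overlaps an Idh2 exon. It held 55.0, 61.1 and 63.6 CPM in LacZ-shRNA and 52.8, 61.0 and 58.6 CPM in Yap-shRNA, so that the groups overlapped. Its log2 fold change was -0.065 (SE 0.12, 95% interval -0.31 to 0.18), and it was 0.077 with library size alone.

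The 4 other upstream peaks, all intergenic, lay on both sides of the one described above. The nearest to the gene, chr7:80118918-80119776, gave 22.7, 25.1 and 21.4 CPM in LacZ-shRNA and 19.9, 21.4 and 25.5 CPM in Yap-shRNA, with a log2 fold change of -0.034 (SE 0.16). Its groups overlapped although it lies next to the upstream peak. The peak at chr7:80128804-80129944 gave -0.22 (SE 0.14), the peak at chr7:80130061-80131179 gave 0.014 (SE 0.16) and the farthest, chr7:80134237-80135457, gave -0.091 (SE 0.13). The farthest held a TEAD match as well, and its levels were 32.6, 31.8 and 38.9 CPM in LacZ-shRNA against 32.0, 31.5 and 35.2 CPM in Yap-shRNA. Of the 3 peaks with a match, the upstream peak was therefore the 1 whose groups were apart.

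On the other side of Idh2 lies Zfp710, a zinc finger gene, with 2 peaks of the locus. The peak at chr7:80074370-80075779, which also spans an exon of Gm21057, held 29.8, 30.6 and 35.8 CPM in LacZ-shRNA and 35.6, 37.4 and 41.4 CPM in Yap-shRNA. Its log2 fold change of 0.23 (SE 0.13) was the highest of the 8, and the lowest Yap-shRNA value lay below the highest LacZ-shRNA value. The peak at chr7:80078573-80079685 gave -0.054 (SE 0.13). Just outside the limits, the peak that straddles the lower one, chr7:80059841-80061059, gave -0.072 (SE 0.14), and the next beyond the upper one, chr7:80185858-80187445 at the Sema4b promoter, gave -0.14 (SE 0.13).

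**Figure D1:**
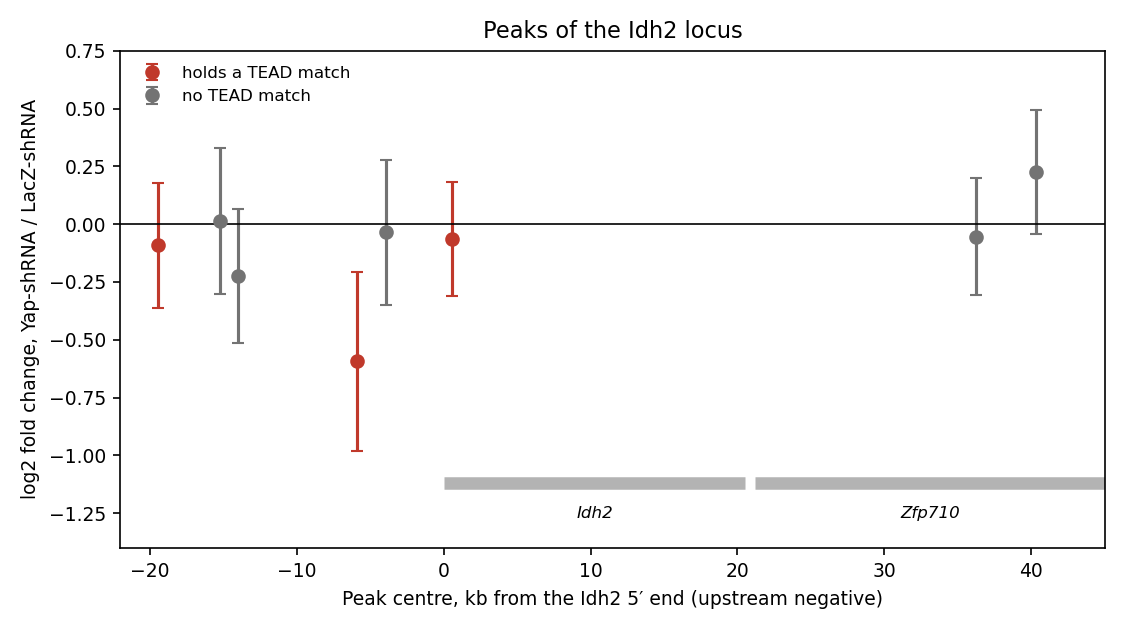
Log2 fold change of Yap-shRNA against LacZ-shRNA (vertical axis, points with 95% intervals) for the 8 peaks by distance of the peak centre from the Idh2 5′ end in kb (horizontal axis, upstream negative), with grey bars for genes. The upstream peak at -0.59 is the one whose interval does not reach 0, and the other peaks with a TEAD match (red) lie near 0.

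**Figure D2:**
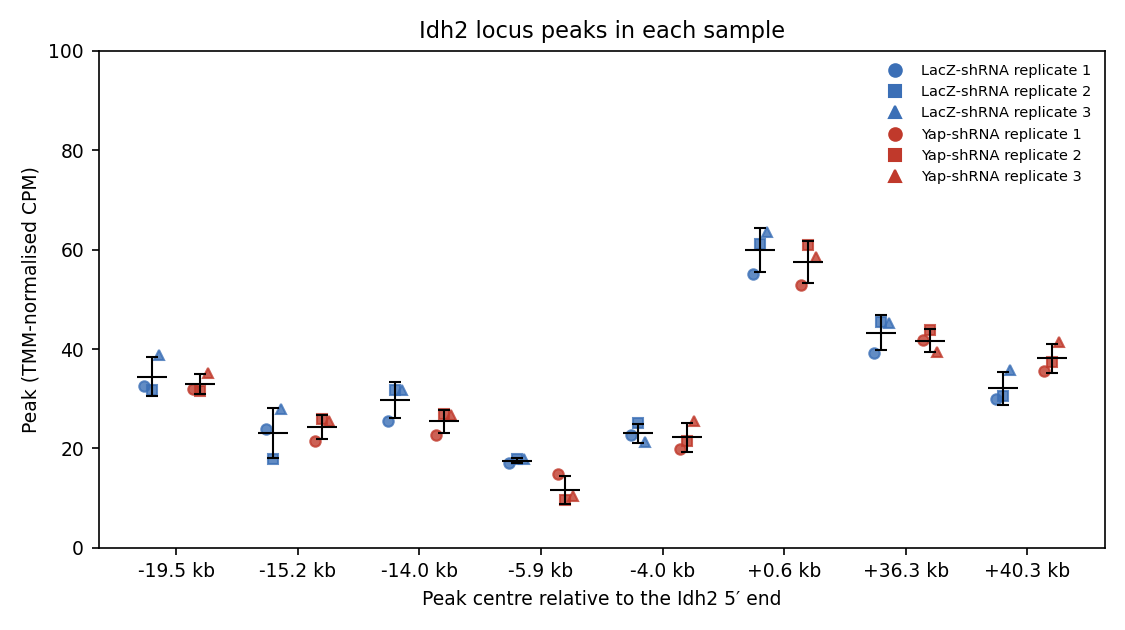
TMM-normalised CPM of the 8 peaks (vertical axis) in each sample, ordered by position along the locus (horizontal axis), with black bars for the mean and SD of 3 samples per group. The groups overlap at 7 of the 8 peaks, and at the upstream peak the Yap-shRNA samples sit at 14.8, 9.59 and 10.4 CPM under LacZ-shRNA values of 17.0 to 17.8 CPM.

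The upstream peak was also followed as a share of the counts in the 8 peaks, which does not depend on scaling between libraries. In LacZ-shRNA replicates 1, 2 and 3 the share was 6.91%, 6.82% and 6.32%. In Yap-shRNA replicates 1, 2 and 3 it was 6.15%, 3.72% and 3.97%. The exact 95% binomial interval of Yap-shRNA replicate 1 was 5.05% to 7.41%, which took in the LacZ-shRNA values, and the intervals of replicates 2 and 3 ended at 4.68% and 5.05%. The intervals of LacZ-shRNA replicates 1, 2 and 3 began at 5.34%, 4.96% and 5.27%, so that of replicate 2 overlapped that of Yap-shRNA replicate 3. All these intervals cover counting error only. Set against the promoter peak alone, the upstream peak took 21.9% to 23.6% of the counts of the pair in the LacZ-shRNA samples and 21.9%, 13.6% and 15.1% in Yap-shRNA replicates 1, 2 and 3, so that replicate 1 reached the LacZ-shRNA range.

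**Figure D3:**
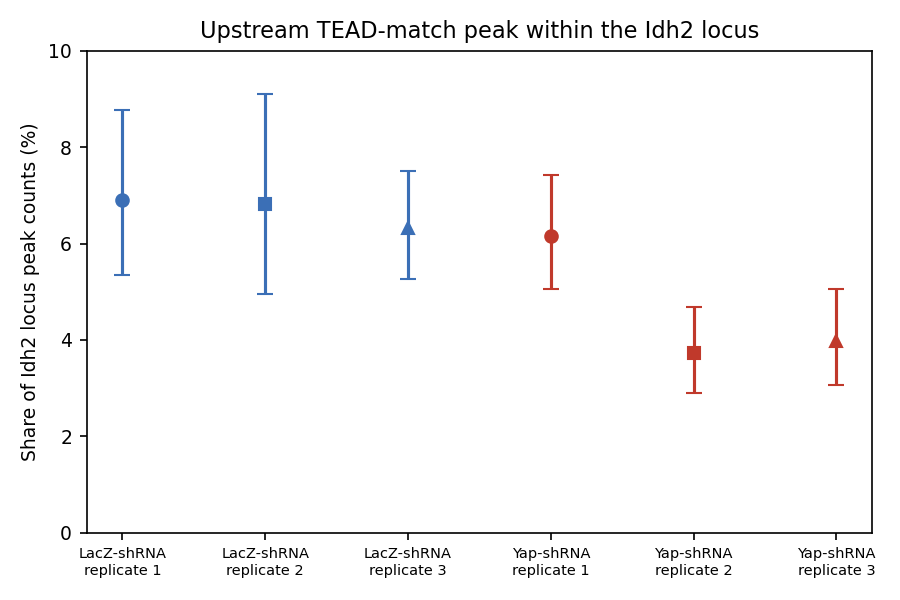
Share of the counts of the 8 Idh2 locus peaks that fell in the upstream peak, in percent (vertical axis), for each sample (horizontal axis), with exact 95% binomial intervals. Yap-shRNA replicate 1 at 6.15% lies beside the LacZ-shRNA samples, and Yap-shRNA replicates 2 and 3 lie lower, at 3.72% and 3.97%.

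Per kb of peak, the upstream peak was as accessible in LacZ-shRNA as the Idh2 promoter peak, at 30.4 ± 0.85 and 30.2 ± 2.23 CPM per kb (SD, n = 3 each). In Yap-shRNA the upstream peak was at 20.1 ± 4.87 CPM per kb, which moved it from percentile 85.0 to percentile 49.4 of all peaks.

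The promoter windows of the 5 genes were compared next. Windows reach 1 kb upstream and downstream of all transcript starts annotated for a gene, so genes with many starts have wide windows. Of the 5 windows 0 were called by edgeR, where 0.0223% of all windows were, and 0 by the likelihood-ratio test or DESeq2. An unadjusted p under 0.05 was found for 0 of 5, where 4.9% of all windows had one. The groups overlapped at all 5 genes, and they failed to overlap at 10.1% of all windows. The median log2 fold change of the 5 was -0.091, against -0.014 over all windows, and 4 of 5 were below 0, as were 52.7% of all windows. With library size alone 3 of 5 were below 0, as were 41.4% of all windows. Over left-out replicates 2 to 4 of 5 were below 0, the fewest without LacZ-shRNA replicate 3, where 52.1% of all windows were. DESeq2 gave no adjusted p for the Idh3g window.

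Idh2 (ENSMUSG00000030541, chr7:80094846-80115392, minus strand) had the widest window of the 5 genes, and the highest level of them before division by length. Its levels were 91.7, 117 and 103 CPM in LacZ-shRNA and 92.0, 98.5 and 99.0 CPM in Yap-shRNA, so the Yap-shRNA samples lay within the LacZ-shRNA range. The log2 fold change was -0.10 (SE 0.13, 95% interval -0.37 to 0.17), with values of -0.011 without LacZ-shRNA replicate 2 and -0.18 without LacZ-shRNA replicate 1. Per kb, the LacZ-shRNA mean of Idh2 was 12.1 CPM, below the 15.1 CPM of Idh3a. The Idh2 window held 237% of the counts of its promoter peak, and it includes 4 transcript starts well inside the gene.

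Idh1 (ENSMUSG00000025950, chr1:65158616-65186500, minus strand) gave 68.2, 69.8 and 79.0 CPM in LacZ-shRNA and 72.5, 60.6 and 57.5 CPM in Yap-shRNA. Yap-shRNA replicates 2 and 3 lay below all LacZ-shRNA samples and replicate 1 lay among them. In edgeR the log2 fold change was -0.19 (SE 0.14, 95% interval -0.47 to 0.08, adjusted p 0.949), with values of -0.30 to -0.12 when 1 replicate was left out, the lowest without Yap-shRNA replicate 1 and the highest without LacZ-shRNA replicate 3.

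The catalytic subunit gene Idh3a (ENSMUSG00000032279, chr9:54586334-54604661, plus strand) gave 49.4, 68.6 and 71.7 CPM in LacZ-shRNA and 63.7, 59.3 and 54.9 CPM in Yap-shRNA. The spread of LacZ-shRNA enclosed the Yap-shRNA samples, and edgeR gave a log2 fold change of -0.09 (SE 0.14, adjusted p 0.973). Without LacZ-shRNA replicate 3 it was 0.029.

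The beta subunit gene Idh3b (ENSMUSG00000027406, chr2:130279309-130284547, minus strand) gave 31.3, 34.3 and 41.1 CPM in LacZ-shRNA and 37.1, 35.0 and 35.3 CPM in Yap-shRNA, with a log2 fold change of -0.0043 (SE 0.14, 95% interval -0.29 to 0.28). Its sign turned with library size alone and with 3 of the left-out replicates.

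The gamma subunit gene Idh3g (ENSMUSG00000002010, chrX:73778963-73786897, minus strand) was the 1 gene above 0, at 17.2, 25.3 and 17.5 CPM in LacZ-shRNA and 22.3, 22.6 and 22.9 CPM in Yap-shRNA. LacZ-shRNA replicate 2 lay above all Yap-shRNA samples, and edgeR gave 0.22 on the log2 scale (SE 0.16, 95% interval -0.10 to 0.55, adjusted p 0.949), with 0.38 without LacZ-shRNA replicate 2 and 0.13 without LacZ-shRNA replicate 3.

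**Figure D4:**
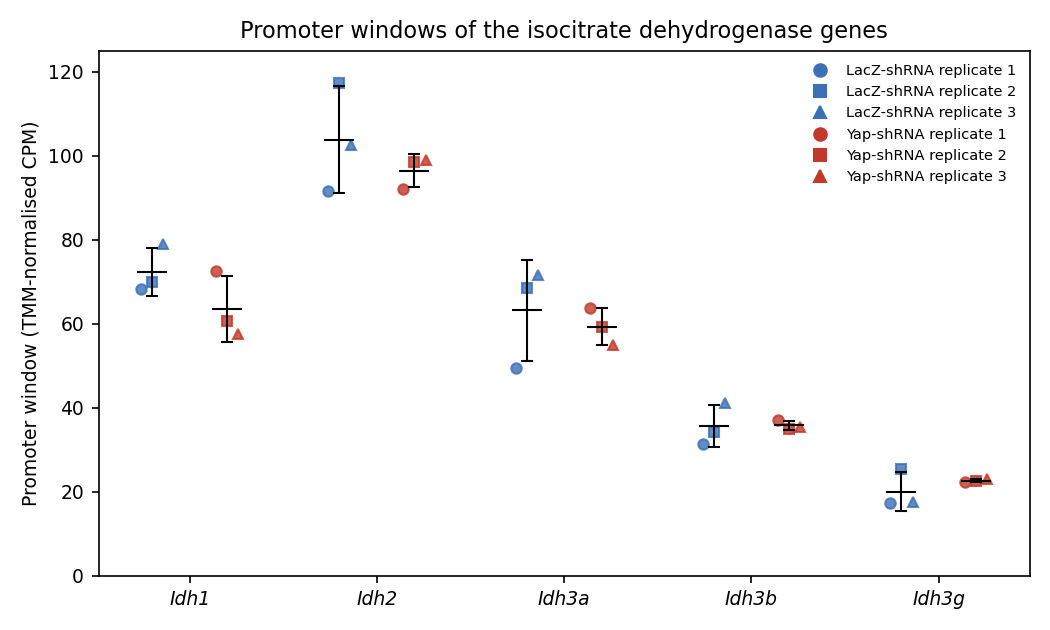
TMM-normalised CPM of the promoter windows (vertical axis) of the 5 genes (horizontal axis) in each sample, with black bars for the mean and SD of 3 samples per group. The groups overlap at every gene, and levels run from 17.2 CPM at Idh3g to 117 CPM at Idh2.

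Window counts of Idh1 and Idh3g are uncertain, because each gene shares its start region with a neighbour read in the other direction. The 5′ ends of Idh1 and Pikfyve, which encodes a lipid kinase, lie 183 bp apart, and those of Idh3g and Ssr4, which encodes a subunit of the translocon-associated complex, lie 131 bp apart. Neighbours share 30.0% of the Idh1 window and 31.4% of the Idh3g window, and these windows held 73.5% and 73.5% of the counts of their promoter peaks. Across the series, 99.98% of 5736 windows free of a neighbour kept 0.95 or more of the reads in their peaks, and 49.2% of 3964 overlapping windows did.

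The short stretches between these paired starts are shown because the peaks span them. Both are GRCm38 minus strand, read in the direction of Idh1 and Idh3g, and come from the RefSeq promoter table. Capitals mark a CCAAT box and 2 GC boxes (GGGCGG on the other strand), and the Idh3g stretch held none of the 10 motifs searched.
Idh1 to Pikfyve, chr1:65186501-65186682: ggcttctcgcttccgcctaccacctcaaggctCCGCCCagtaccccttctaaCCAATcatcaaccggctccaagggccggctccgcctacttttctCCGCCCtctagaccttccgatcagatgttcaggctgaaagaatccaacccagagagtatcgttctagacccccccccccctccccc
Idh3g to Ssr4, chrX:73786898-73787027: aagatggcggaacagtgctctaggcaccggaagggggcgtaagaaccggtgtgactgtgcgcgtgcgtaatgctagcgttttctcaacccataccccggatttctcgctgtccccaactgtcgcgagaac

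RefSeq promoters, 250 bases before to 50 after a start, were matched by symbol for Idh1, Idh2, Idh3b and Idh3g, 4 of the 5 genes, in 5 entries, and not for Idh3a. No entry held the TEAD match, which 3.85% of 32851 promoters did, and none held a match for ERR or NRF1. Motifs were searched as exact strings on both strands, and the others were AP-1 as TGANTCA, the CCAAT and GC boxes above, the E-box as CAGCTG, the nuclear receptor element AGGTCA, the glucocorticoid receptor element and CTCF. A CCAAT box was found in 3 of 5 entries, where 37.4% of all promoters held one, and a GC box in 3 of 5, where 35.7% did.

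The promoter peaks, which do not depend on the windows, numbered 8 for the 5 genes. None was called by edgeR, where 0.618% of all peaks were, and 0 of 8 had an unadjusted p under 0.05, where 8.9% of all peaks did. The likelihood-ratio test called 0, and DESeq2 called 0 of the 7 for which it gave an adjusted p. The median log2 fold change was -0.062, against -0.0026 over all peaks. Below 0 were 6 of 8, and 1 of 8 with library size alone, where 50.5% and 28.4% of all peaks were. Over left-out replicates 4 to 7 of 8 were below 0. Idh1 had an internal peak, chr1:65177857-65179592, over a coding transcript start 7319 bp inside the gene, and a 5′ peak shared with Pikfyve, chr1:65186075-65187197.

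The internal Idh1 peak held 87.9, 84.1 and 90.0 CPM in LacZ-shRNA and 87.5, 77.4 and 70.6 CPM in Yap-shRNA, and edgeR put its log2 fold change at -0.16 (SE 0.12, adjusted p 0.808). The 5′ peak held 46.0, 49.7 and 48.8 CPM and 53.8, 44.6 and 41.5 CPM, with a log2 fold change of -0.042 (SE 0.13). The internal peak took 65.6%, 62.9% and 64.9% of the counts of the pair in LacZ-shRNA and 61.9%, 63.4% and 63.0% in Yap-shRNA. The means of 64.5% ± 1.44 and 62.8% ± 0.78 (SD, n = 3 each) gave p = 0.3 in an exact two-sided permutation test, for which 0.1 is the smallest p these groups allow.

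None of the Idh3 promoter peaks was called. The Idh3a 5′ peak, chr9:54586076-54587341, held 1 TEAD match, 2 ERR matches and 1 NRF1 match, where 1.78% of all peaks held an ERR match and 1.01% an NRF1 match. It gave 42.7, 47.6 and 49.5 CPM in LacZ-shRNA and 46.1, 47.1 and 39.2 CPM in Yap-shRNA, with a log2 fold change of -0.081 (SE 0.13). Its 2 internal peaks, chr9:54594509-54594625 and chr9:54594704-54595486, gave -0.093 (SE 0.41) at a mean of 2.72 CPM and 0.078 (SE 0.17). The Idh3b peak, chr2:130283626-130284701, gave 22.5, 22.5 and 27.3 CPM and 22.2, 24.7 and 23.7 CPM, with a log2 fold change of -0.060 (SE 0.15).

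The Idh3g peak, chrX:73786229-73787568, held 38.6, 36.5 and 39.6 CPM in LacZ-shRNA and 43.5, 40.4 and 42.2 CPM in Yap-shRNA. All 3 Yap-shRNA samples lay above all 3 LacZ-shRNA samples, as at 6.55% of all peaks, and edgeR put the difference at 0.13 on the log2 scale (SE 0.13, adjusted p 0.865). It was the 1 of 8 promoter peaks whose groups did not overlap, where 13.3% of all peaks did not.

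Levels were compared between genes per kb of peak. The order in LacZ-shRNA was Idh1 internal (50.3 ± 1.73 CPM per kb), Idh1 5′ (42.9 ± 1.70), Idh3a (36.8 ± 2.76), Idh2 (30.2 ± 2.23), Idh3g (28.5 ± 1.18) and Idh3b (22.4 ± 2.56; SD, n = 3 each). Neighbours in this order had separate LacZ-shRNA ranges and kept their order in 6 of 6 samples, except Idh2 and Idh3g, which overlapped and kept it in 3 of 6. The median of 12725 promoter peaks was 25.0 CPM per kb, and the 6 peaks stood at percentiles 96.9, 92.9, 86.0, 71.3, 65.7 and 37.1 of them. By window, Idh3g stood at percentile 28.0 of all windows per kb and the other 4 genes between 88.6 and 97.2, whereas its peak stood at percentile 81.3 of all peaks.

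**Figure D5:**
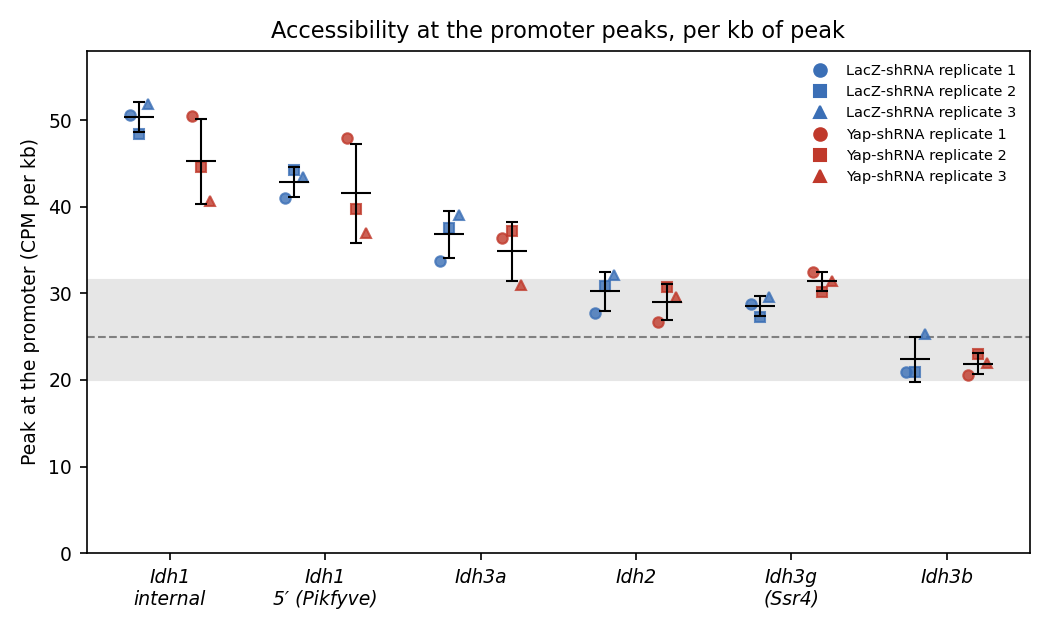
CPM per kb of peak (vertical axis) at the 6 main promoter peaks (horizontal axis) in each sample, with black bars for the mean and SD of 3 samples per group, a dashed line for the median of all promoter peaks at 25.0 and a grey band from their lower to upper quartile, 20.0 to 31.6. Both Idh1 peaks lie above the band in every sample and Idh3a in 5 of 6, and Idh3b lies within it.

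The patterns most like those of Idh2 were sought by Pearson's r of log2 CPM over the 6 samples, among rows with a mean count of at least 50, as a description. For the Idh2 window they were the windows Gm8435 (r = 0.997), Gm16276 (0.995) and Usp51 (0.994) and the peaks chr1:91779604-91780399 (0.994), chr2:94405898-94407024 in Ttc17 (0.991) and chr15:100108244-100108958 in Dip2b (0.989). For the upstream peak they were the windows Eda2r (0.998), Gm2568 (0.986) and Ripply1 (0.978) and the peaks chr13:103977828-103979089 (0.995), chr2:126838664-126839377 in Trpm7 (0.994) and chr16:76644199-76644918 (0.992). With so few samples high values were common, and 643 of 38881 windows had an r over 0.9 with the Idh2 window and 398 of 23999 peaks with the upstream peak.

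Genes next to the isocitrate dehydrogenases in metabolism were read from the window table, as 3 lists in which the likelihood-ratio test and DESeq2 called 0. DESeq2 gave no adjusted p for 4, 1 and 2 of their genes. Over all windows, 0.0223% were called, 4.9% had an unadjusted p under 0.05, 52.7% were below 0 and the median was -0.014. In the TCA cycle list 20 of 22 genes had a window. In it edgeR called 0, 1 had an unadjusted p under 0.05, and 14 of 20 were below 0 with a median of -0.064, against 52.7% and -0.014 over all windows. With library size alone 10 of 20 were below 0. Over left-out replicates the count ran from 8 of 20 without LacZ-shRNA replicate 3 to 19 of 20 without LacZ-shRNA replicate 1. Of all windows 52.1% and 49.3% were below 0 in these 2 settings. Pdha1, the alpha subunit of pyruvate dehydrogenase, gave 36.4, 41.3 and 41.1 CPM in LacZ-shRNA and 32.4, 29.4 and 30.4 CPM in Yap-shRNA, and edgeR gave -0.36 on the log2 scale (SE 0.14, adjusted p 0.946, range over the alternatives 0.153 to 1.000). Its groups did not overlap, as for 2 of the 20 genes in all, where 10.1% of all windows did not. Mdh1, the cytosolic malate dehydrogenase, gave 0.31 (SE 0.19) in a window shared with another gene, and the fumarase gene Fh1 gave -0.15 (SE 0.13).

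The list of NADPH supply also held the genes of reductases that use NADPH, Gsr, Txnrd1 and Txnrd2. In it 15 of 17 genes had a window and edgeR called 0. An unadjusted p under 0.05 was found for 1, Txnrd2, where 4.9% of all windows had one, and the median was 0.049. Txnrd2, the mitochondrial thioredoxin reductase, gave 0.29 (SE 0.13), also in a shared window, Aldh1l2, a mitochondrial folate enzyme, gave -0.17 (SE 0.13) and the malic enzyme gene Me2 gave -0.15 (SE 0.14). The groups did not overlap for 2 of 15 genes, Txnrd2 and Aldh1l2, where 10.1% of all windows did not.

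In the list of 2-oxoglutarate metabolism, all 19 genes had a window, edgeR called 0, 4 had an unadjusted p under 0.05 (2 higher and 2 lower), where 4.9% of all windows did, and the median was 0.029. Glul, which encodes glutamine synthetase, gave 78.9, 98.4 and 101 CPM in LacZ-shRNA and 62.4, 68.9 and 81.0 CPM in Yap-shRNA, and edgeR gave -0.39 on the log2 scale (SE 0.14, adjusted p 0.946) in a shared window. Oat, the ornithine aminotransferase gene, gave -0.33 (SE 0.14), and the citrate carrier gene Slc25a1 gave 0.34 (SE 0.15). The groups overlapped at Glul, Oat and Slc25a1. They did not overlap for 3 other genes of the 19, where 10.1% of all windows did not. Without LacZ-shRNA replicate 1, where 157 windows were called in all, Glul and Oat were among them (edgeR adjusted p 0.00656 and 0.0394, log2 fold changes -0.50 and -0.48), and over all alternatives their adjusted p ran from these values to 1.000. The study had named Glul, and Gpt2 of the same list, among its top lowered genes on these same libraries. The values of Glul are therefore a description and not independent evidence.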

How the data were processed

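ATAC-seq counts were deposited by the authors as whole-number read counts, not normalised, for peaks and for windows around transcript starts. Per the labels and the study's methods, reads were mapped to GRCm38 with BWA 0.7.17, duplicates were removed with SAMtools 1.8, peaks were called with MACS 1.4.2-1 and reads were counted with featureCounts 1.5.0 on Ensembl release 96. The authors had removed rows with a mean count under 10. The methods state a minimum mapping quality of 10 for counts over genes, and whether it held for these ATAC-seq tables is not given in the sources used here, nor is a transposase offset.

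Groups came from the labels. Each table was fitted whole in edgeR 4.0.16 (R 4.3.3). The quasi-likelihood test was used after TMM scaling, without covariates, and p-values were adjusted by Benjamini-Hochberg with a threshold of 0.05. Log2 fold changes give Yap-shRNA relative to LacZ-shRNA, and levels are TMM-normalised CPM. The alternatives tried were DESeq2 1.42.0, edgeR's likelihood-ratio test, library size alone, RLE factors, a mean count of at least 50, a replicate block, each replicate left out and peaks linked by gene body and 10 kb. Exact permutation tests used scipy 1.17.1. Members, gene lists and motifs were chosen with earlier results of these data known. Named features are the 5 genes, their promoter and locus peaks, Yap1, the 3 genes of each list with the smallest p and the 3 most similar windows and peaks.

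The fit was tested on simulated data. At a log2 change of 1 in 200 features it recovered 72.5% in the 36097 peaks and 82.5% in the 49366 windows, and at 0.5 it recovered 12% and 7.5%. Promoter sequences are from RefSeq (GRCm38.p6).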

Additional observations from a re-analysis of the deposited data

How the results depend on the processing

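Under every alternative run, 0 member windows, 0 member promoter peaks and 0 Idh2 locus peaks were called among those with an adjusted p. DESeq2 gave none for the Idh3g window and the smaller internal Idh3a peak, and that peak was left out at a mean count of at least 50. In all alternatives the upstream peak stayed below 0, from -0.81 without Yap-shRNA replicate 1 to -0.46 with library size alone. The likelihood-ratio test called 33 windows and 378 peaks and DESeq2 20 and 118, against 11 and 223, and DESeq2 gave no adjusted p for 38284 windows and 12597 peaks. A mean count of at least 50 gave 136 peaks. Leaving out a replicate gave 4 to 157 windows (4 without Yap-shRNA replicate 2, 5 without Yap-shRNA replicate 1, 157 without LacZ-shRNA replicate 1) and 94 to 447 peaks (94 without Yap-shRNA replicate 1 or 2, 132 without LacZ-shRNA replicate 2, 447 without LacZ-shRNA replicate 3). The 2-oxoglutarate list went from 0 to 2 without LacZ-shRNA replicate 1. Library size alone called 229 peaks, 105 of them lower in Yap-shRNA, against 206 of 223, and it shifted the median of all peaks to 0.14. The causes were not tested.

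Signs turned at small effects. With library size alone, the log2 fold change was 0.056 for the Idh3b window, 0.099 for the Idh1 5′ peak, 0.061 for the Idh3a 5′ peak, 0.034 for the smaller internal Idh3a peak and 0.079 for the Idh3b peak. In the Idh2 locus it was 0.077 for the promoter peak, 0.087 for chr7:80078573-80079685, 0.10 for chr7:80118918-80119776 and 0.048 for chr7:80134237-80135457. Over left-out replicates the values ran from -0.25 to 0.029 for the Idh3a window, -0.11 to 0.13 for the Idh3b window, -0.074 to 0.15 for Yap1, -0.16 to 0.017 for the Idh1 5′ peak, -0.35 to 0.27 and -0.059 to 0.27 for the internal Idh3a peaks and -0.12 to 0.066 for the Idh3b peak. In the Idh2 locus they ran from -0.16 to 0.040 for chr7:80118918-80119776, -0.10 to 0.19 for chr7:80130061-80131179 and -0.16 to 0.026 for chr7:80134237-80135457.

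Same-numbered samples deviated together with correlations of 0.19, -0.12 and 0.092 in windows and 0.015, -0.093 and -0.14 in peaks. With so few pools these values cannot settle whether same-numbered pools share animals. With a replicate block 13 windows and 207 peaks were called, none of them a member, and the Idh3b window gave 0.012. In peaks, LacZ-shRNA replicates 1, 2 and 3 correlated best with Yap-shRNA replicates 3, 3 and 2. In windows they did so with Yap-shRNA replicates 1, 3 and 3.

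Counts of 42 to 121 per library limit the precision at the upstream peak.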

Other observations

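The 4 genes other than Idh2 had 14 peaks within 50 kb of their 5′ ends. None was called by edgeR or the likelihood-ratio test, or by DESeq2 among those with an adjusted p, and edgeR called 0.618% of all peaks. An unadjusted p under 0.05 was found for 0 of 14, where 8.9% of all peaks had one, and the log2 fold changes ran from -0.16 to 0.30 with a median of -0.018. An intergenic peak 9435 bp upstream of Idh3a, chr9:54576312-54576899, held 6.85, 10.6 and 10.5 CPM in LacZ-shRNA and 11.8, 11.3 and 11.6 CPM in Yap-shRNA, and edgeR gave 0.30 on the log2 scale (SE 0.22, adjusted p 0.774). All 3 Yap-shRNA samples lay above the LacZ-shRNA samples, as at 6.55% of all peaks, and it was singled out after its values were seen. A TEAD match was found in 2 of the 14, the Idh3a 5′ peak and a Cib2 promoter peak at chr9:54559559-54561312, which gave -0.11 (SE 0.13). The peak of Nop56, 9526 bp from the Idh3b 5′ end, gave 0.035 (SE 0.13), and that of the muscle kinase gene Srpk3, 11361 bp from Idh3g, gave -0.0038 (SE 0.13).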
